A study of Mus musculus with 4 samples.

Results

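Reactive astrocyte genes were followed at the lesion site of the contused spinal cord. The 8 genes, listed in the deposited table as GFAP, VIM, NES, CD44, S1PR3, STEAP4, OSMR and CP, were chosen by name as genes known to be raised in astrocytes that react to injury, and all 8 were listed at both time points, among 14718 gene symbols in all. GFAP, VIM and NES encode intermediate filament proteins, CD44, S1PR3 and OSMR encode receptors at the cell surface, and STEAP4 and CP encode enzymes that change the charge of metal ions. They are written below as the mouse genes Gfap, Vim, Nes, Cd44, S1pr3, Osmr, Steap4 and Cp.

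Bulk RNA-seq was performed on male mice in which the mouse ApoE gene was replaced by human ApoE3 or human ApoE4 (targeted replacement). Mice were 3 to 5 months old at surgery, received a 50 kdyne contusion at thoracic level 9 under isoflurane, and a 4 mm segment with the lesion was taken at 7 or 21 days post injury (dpi). Each of the 4 groups (either genotype at either time) held 3 mice, whose data the authors combined into 1 value per gene, in FPKM (a count of fragments scaled for transcript length and sequencing depth). No sham-operated or uninjured group was analysed here, so the values describe differences between injured groups and not the response to injury.

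With 1 value per gene and group there is no spread between mice, and no difference below was tested. The deposited table names the genotypes in conflicting ways: the name of each comparison puts ApoE3 before ApoE4, whereas the sample columns put ApoE4 before ApoE3. Values were read by the name of the comparison, which is also how the authors' list of genes reads them. Under the other reading every direction between genotypes given below turns around, and the values over time change places between the genotypes.

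Astrocytes react to damage of the cord by enlarging, by building up intermediate filaments, and close to the lesion by forming a border around infiltrating cells. Cytokines of the interleukin-6 family, among them oncostatin M, signal through receptors that share gp130 and activate the transcription factor STAT3, which is needed for much of this response. Gfap is largely restricted to astrocytes within the cord, but Vim, Nes, Cd44, Osmr and S1pr3 are also expressed by macrophages, fibroblasts, vascular cells or ependymal cells. In bulk tissue, fewer cells of a type and less RNA per cell cannot be told apart.

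The promoters of the 8 genes were read for motifs of the factors named most often with this response. RefSeq promoters (build GRCm38.p6, 250 bases before to 50 bases after a gene start) were matched for all 8 genes, with 9 windows because Cp has a pair of starts. The letters TTCNNNGAA, a STAT motif that is its own reverse complement, were found in Gfap and Steap4. The letters TGANTCA, a loose form of the AP-1 motif that also reads the same on both strands, were found in Osmr and in the upstream window of Cp. The usual AP-1 motif has C or G at the middle base, and both matches have T there, so neither is that motif. Of all 32851 windows, 8.30% held the STAT letters and 7.81% held the loose AP-1 letters. The windows of Vim, Nes, Cd44 and S1pr3 held neither. The stretches with a match are shown 5′ to 3′ because Gfap, Steap4 and Cp are the genes that stand farthest from all genes between the genotypes at 21 dpi, and because Osmr is the receptor upstream of STAT3; capitals mark the letters matched.
Gfap promoter, chr11:102897151-102897450, minus strand: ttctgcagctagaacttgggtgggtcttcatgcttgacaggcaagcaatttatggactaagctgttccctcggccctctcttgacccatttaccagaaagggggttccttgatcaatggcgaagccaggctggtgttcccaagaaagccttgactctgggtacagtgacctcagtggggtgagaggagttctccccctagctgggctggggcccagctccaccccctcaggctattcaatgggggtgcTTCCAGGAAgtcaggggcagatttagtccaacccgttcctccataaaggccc
Steap4 promoter, chr5:7960222-7960521, plus strand: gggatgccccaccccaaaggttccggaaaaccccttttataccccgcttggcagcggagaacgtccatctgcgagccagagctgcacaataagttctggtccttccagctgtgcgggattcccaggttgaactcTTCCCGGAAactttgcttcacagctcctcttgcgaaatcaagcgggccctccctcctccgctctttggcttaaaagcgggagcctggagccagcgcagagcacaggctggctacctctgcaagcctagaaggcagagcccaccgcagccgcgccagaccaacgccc
Osmr promoter stretch, chr15:6874276-6874336, minus strand: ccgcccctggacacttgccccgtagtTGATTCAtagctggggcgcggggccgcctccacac
Cp promoter stretch, chr3:19956851-19956911, plus strand: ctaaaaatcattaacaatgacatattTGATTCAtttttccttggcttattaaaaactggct
In Gfap the STAT letters begin 2 bases before the start and run across it, and in Steap4 they begin 116 bases before the start. The letters TGATTCA begin 3 bases after the start base of Osmr and 177 bases before that of Cp. A match is a description of the letters, not a site or a cause.

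Gfap, the filament protein by which astrocytes are usually recognised, was by far the most abundant of the 8. Its level at 7 dpi was 12395 FPKM in ApoE3 and 12386 FPKM in ApoE4, and at 21 dpi it was 8201 and 15313 FPKM. The genotypes were nearly equal at 7 dpi, and they separated at 21 dpi, with the lowest value of the 4 in ApoE3 and the highest in ApoE4. Among all listed genes Gfap ranked 2 in both genotypes at 7 dpi, and at 21 dpi it ranked 7 in ApoE3 mice and 5 in ApoE4 mice. It made up 92.2% and 91.2% of the summed FPKM of the 8 genes in ApoE3 and ApoE4 at 7 dpi, and 94.7% and 96.1% at 21 dpi. A sum over the 8 genes is therefore a reading of Gfap, and each gene is described on its own.

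Vim, a filament protein that assembles with Gfap in reactive astrocytes and is also abundant in macrophages, fibroblasts and endothelium, was measured at 528 FPKM in ApoE3 and 611 FPKM in ApoE4 at 7 dpi. At 21 dpi Vim was at 238 FPKM in ApoE3 and 333 FPKM in ApoE4. Both 21 dpi groups were below both 7 dpi groups, and ApoE4 was above ApoE3 at each time. Nes, a filament protein of neural progenitors that reactive astrocytes and ependymal cells take up again, was at 16.5 FPKM in ApoE3 and 20.2 FPKM in ApoE4 at 7 dpi. Its 21 dpi values were 11.5 FPKM in ApoE3 and 17.2 FPKM in ApoE4. For Nes the groups of the days overlapped, since ApoE4 at 21 dpi lay above ApoE3 at 7 dpi.

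Cd44, the main receptor for hyaluronan, had 325 FPKM in ApoE3 and 380.3 FPKM in ApoE4 at 7 dpi, and 132 FPKM in ApoE3 and 189 FPKM in ApoE4 at 21 dpi. Osmr, which pairs with gp130 to bind oncostatin M, had 48.4 and 50.2 FPKM in ApoE3 and ApoE4 at 7 dpi, and 18.8 and 26.8 FPKM at 21 dpi. S1pr3, a receptor for sphingosine-1-phosphate, had 11.3 and 11.6 FPKM at 7 dpi, and 7.81 and 10.1 FPKM at 21 dpi, again with ApoE3 given before ApoE4. All 3 receptors were lower in both 21 dpi groups than in both 7 dpi groups, with ApoE4 above ApoE3 at each time, although the 7 dpi values of Osmr and S1pr3 were close together.

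Steap4, a metalloreductase of iron and copper, was the least abundant of the 8, with 3.38 FPKM in ApoE3 and 2.74 FPKM in ApoE4 at 7 dpi, and 1.33 and 1.31 FPKM at 21 dpi. Cp, the ferroxidase ceruloplasmin that astrocytes carry at their surface, had 113 FPKM in ApoE3 and 114 FPKM in ApoE4 at 7 dpi, and 51.0 and 46.6 FPKM at 21 dpi. The enzymes differed from the other 6 genes at 21 dpi in that ApoE4 was not above ApoE3. Over the 8 genes, the highest value was in ApoE4 at 7 dpi for 6 genes, with Steap4 (ApoE3 at 7 dpi) and Gfap (ApoE4 at 21 dpi) as the exceptions. Of the lowest values, 6 were in ApoE3 at 21 dpi, whereas those of Steap4 and Cp were in ApoE4 at that time.

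**Figure D1:**
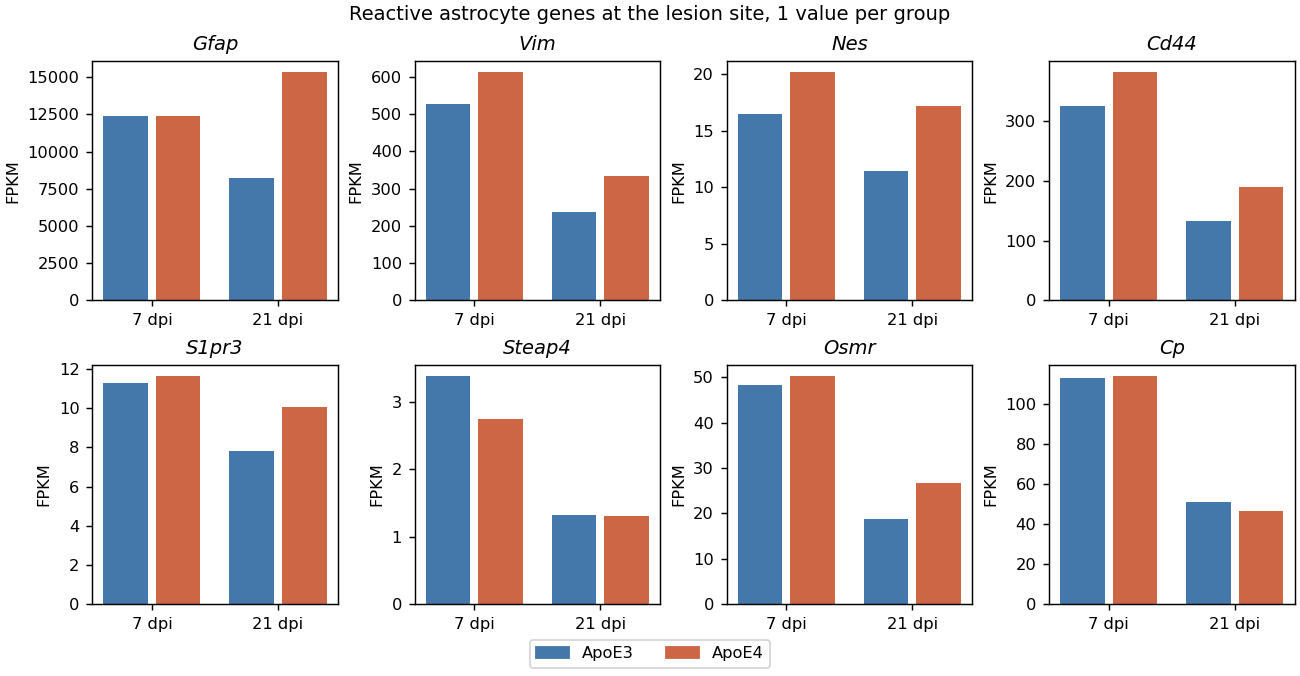
FPKM (vertical axes, from 0, on a scale of its own for each gene) of the 8 genes in ApoE3 (blue) and ApoE4 (orange) mice at 7 and 21 dpi; each bar is the authors' 1 value for the group, without an error. Gfap is level between genotypes at 7 dpi and reaches 8201 FPKM in ApoE3 and 15313 FPKM in ApoE4 at 21 dpi, whereas Steap4 and Cp have no higher bar in ApoE4 at 21 dpi.

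Differences between genotypes were expressed as the log2 ratio of ApoE4 over ApoE3 after adding 1 to each FPKM, and a gene was counted as different when the ratio reached 1.3-fold, the smallest fold the authors used. At 7 dpi, none of the 8 genes was at least 1.3-fold higher and none at least 1.3-fold lower in ApoE4, beside 4.76% of 14127 genes that were higher and 3.78% that were lower. The median log2 ratio of the 8 genes was 0.05. Nes had the highest log2 ratio, 0.28, and was 1.21-fold higher in ApoE4, with 90.8% of all genes below it. Cd44 and Vim followed with log2 ratios of 0.23 and 0.21. The ratios of Osmr, S1pr3 and Cp were 0.05, 0.04 and 0.01, and that of Gfap was -0.00. Steap4, at -0.23, was the lowest, and it rests on values near 3 FPKM. Thus Vim, Nes and Cd44 were slightly higher in ApoE4 at 7 dpi without passing the fold, and the level of Gfap was nearly equal.

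At 21 dpi the whole table was displaced toward ApoE4. The median log2 ratio of all genes was 0.42, a 1.34-fold difference, and 93.8% of 11474 genes were higher in ApoE4. On the deposited values, 5 of the 8 genes (Gfap, Vim, Nes, Cd44 and Osmr) were at least 1.3-fold higher in ApoE4 and none was 1.3-fold lower, but 58.9% of all genes were also higher by that fold and 2.02% lower. The median log2 ratio of the 8 genes, 0.49, was 0.06 above that of all genes. Ratios at 21 dpi are therefore given relative to the median of all genes as well.

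Relative to all genes, 1 of the 8 genes was at least 1.3-fold higher in ApoE4 at 21 dpi, beside 8.07% of all genes, and 2 were at least 1.3-fold lower, beside 7.47%. The higher gene was Gfap, with a log2 ratio of 0.90 on the deposited values (1.87-fold) and 0.48 relative to all genes (1.39-fold), and 94.7% of all genes had a smaller ratio. The lower genes were Cp and Steap4. Cp had a log2 ratio of -0.13 on the deposited values and -0.55 relative to all genes, with only 3.91% of genes below it. Steap4 had -0.01 and -0.44, with 5.9% of genes below it, and rests on values near 1.3 FPKM. Both enzymes had nearly equal FPKM in the genotypes, while most other genes were higher in ApoE4. The remaining 5 genes kept close to the median of all genes: their relative log2 ratios were 0.12 for Nes, 0.09 for Cd44, 0.07 for Osmr, 0.06 for Vim and -0.09 for S1pr3. The 8 genes did not move together between the genotypes at 21 dpi.

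**Figure D2:**
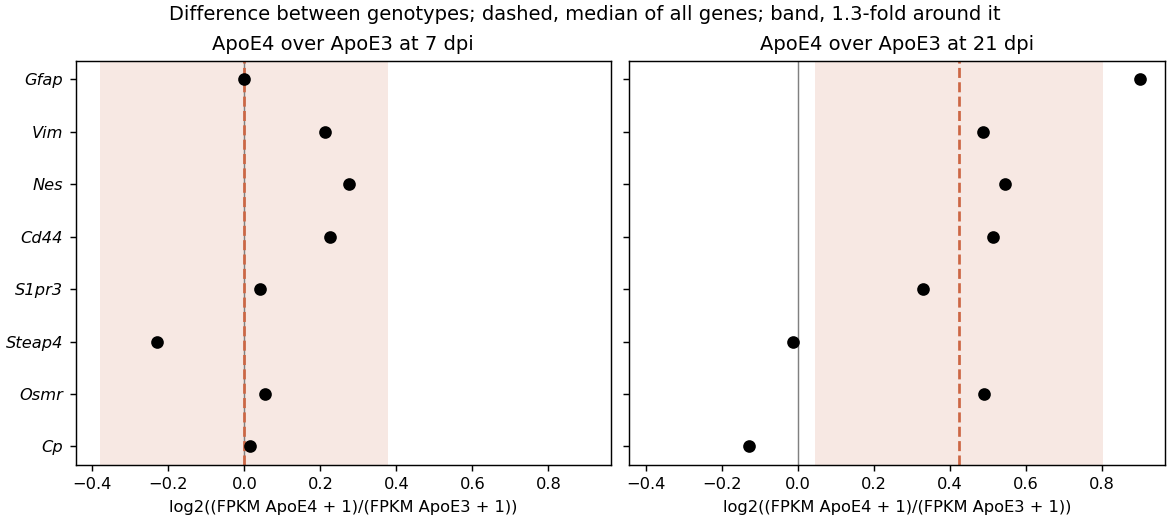
Log2 ratio of ApoE4 over ApoE3 (horizontal axes, after adding 1 to FPKM) of each gene (points, 1 value each) at 7 dpi on the left and 21 dpi on the right; the dashed line is the median of all genes and the band spans 1.3-fold on either side of it. At 7 dpi all 8 points lie within the band, and at 21 dpi Gfap (0.90) lies above it and Steap4 (-0.01) and Cp (-0.13) below it.

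**Figure D3:**
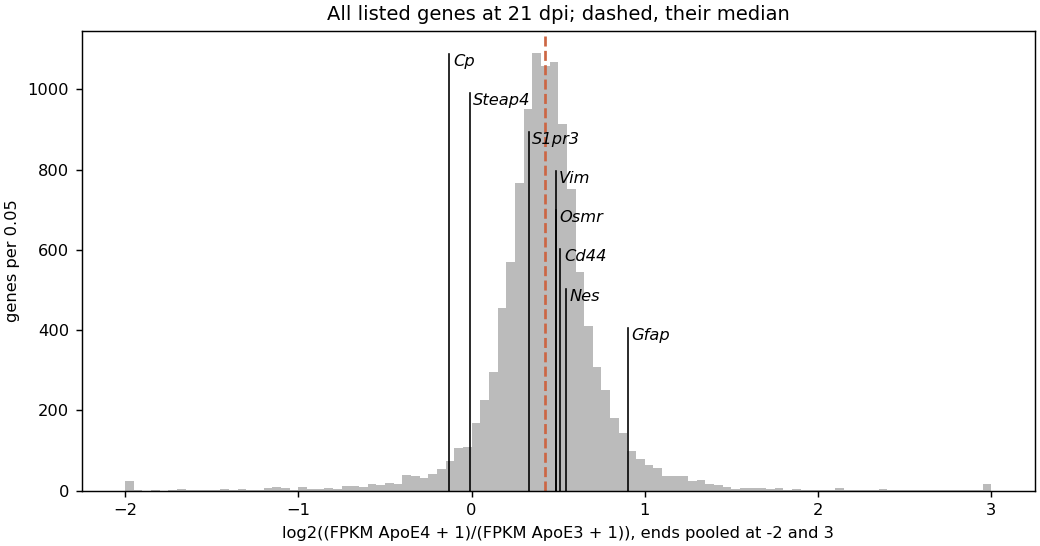
Number of genes (vertical axis) by log2 ratio of ApoE4 over ApoE3 at 21 dpi (horizontal axis) for all 11474 genes, with the 8 genes marked by lines whose height has no meaning and the median of all genes, 0.42, dashed. Vim, Nes, Cd44, Osmr and S1pr3 stand in the bulk of the distribution, Gfap in its upper shoulder and Steap4 and Cp in its lower shoulder.

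The stand of Gfap was set beside a list of homeostatic astrocyte genes. These genes also differed over time, with log2 ratios of 21 over 7 dpi from -1.69 to 0.74 in ApoE3. The list is therefore not a measure of astrocyte number. All 16 listed homeostatic astrocyte genes were at least 1.3-fold higher in ApoE4 at 21 dpi on the deposited values, beside 58.9% of all genes. Relative to all genes 1 of 16 was so, beside 8.07%, with a median relative log2 ratio of 0.21 for the list. Aqp4, the water channel of astrocyte endfeet, was at 833 FPKM in ApoE3 and 1472 FPKM in ApoE4 at 21 dpi, with a relative log2 ratio of 0.40, and Slc1a2, the main astrocyte glutamate transporter, was at 1057 and 1802 FPKM, with 0.35. Relative to the median of the homeostatic list, the log2 ratio of Gfap was 0.27 and no longer reached 1.3-fold, Vim, Nes, Cd44 and Osmr were between -0.15 and -0.09, and S1pr3, Steap4 and Cp were at -0.30, -0.65 and -0.76. The ratio of Gfap to Slc1a2 was 7.24 in ApoE3 and 7.91 in ApoE4 at 7 dpi, and 7.76 and 8.50 at 21 dpi. The ratio of Gfap to Aqp4 was 4.61 and 5.13 at 7 dpi, and 9.85 and 10.4 at 21 dpi in ApoE3 and ApoE4. Against Atp1b2, a sodium pump subunit of astrocytes, it was 10.5 and 9.84 at 7 dpi, and 6.09 and 7.70 at 21 dpi. Relative to the median of the homeostatic list, the log2 ratio of Gfap over time was -0.59 in ApoE3 and -0.17 in ApoE4. Gfap at 21 dpi thus stood higher than at 7 dpi against Aqp4, lower against Atp1b2 and the list, and little changed against Slc1a2. The part of astrocyte number in the level of Gfap was not tested.

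Other pan-reactive astrocyte genes, a list without the 8, were counted in the same way. At 7 dpi 2 of 6 were at least 1.3-fold higher in ApoE4 and 2 lower (median 0.03), beside 4.76% and 3.78% of all genes. At 21 dpi all 6 were at least 1.3-fold higher in ApoE4 on the deposited values, beside 58.9% of all genes. Relative to all genes 1 of 6 was higher, beside 8.07%, and the median relative log2 ratio was 0.34. That gene was Hspb1, at 105 FPKM in ApoE3 and 207 FPKM in ApoE4 at 21 dpi, a relative log2 ratio of 0.56. Serpina3n, a secreted protease inhibitor, was at 821 and 1083 FPKM in ApoE3 and ApoE4 at 7 dpi, and 605 and 1030.1 FPKM at 21 dpi. Cxcl10, a chemokine of the same list, was at 34.2 and 13.04 FPKM at 7 dpi, and 14.8 and 23.9 FPKM at 21 dpi. The lists named for the A1 and A2 states of reactive astrocytes had median relative log2 ratios of 0.11 over 10 genes and 0.25 over 8 genes at 21 dpi, and 0.04 over 12 genes and 0.28 over 9 genes at 7 dpi. Vim, Nes and Cd44, at 0.21 to 0.28 at 7 dpi, were thus near the A2 list at that time and below it at 21 dpi.

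Between the time points, the 8 genes were lower at 21 than at 7 dpi, with Gfap in ApoE4 as the exception on the deposited values. The time points were listed as separate comparisons and may have been normalized separately, so ratios between them are given both ways. In ApoE3, all 8 genes were at least 1.3-fold lower at 21 dpi and none was higher, beside 23.6% of 10876 genes that were lower and 31.3% that were higher; relative to all genes it was again 8 genes lower and none higher, beside 27.7% and 26.6%. Their median log2 ratio was -1.02, beside 0.09 for all genes. In ApoE4, 5 of the 8 genes were at least 1.3-fold lower and none was higher on the deposited values, beside 10.9% and 59.0% of all genes, and 7 of 8 were lower relative to all genes, beside 28.6% lower and 26.1% higher. Their median log2 ratio in ApoE4 was -0.78, beside 0.53 for all genes, and -1.31 relative to all genes.

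Other astrocyte lists did not all share the lower levels of the 8 genes at 21 dpi. The shares over all genes are those just given for the same comparisons. Of the 6 other pan-reactive genes, 1 was at least 1.3-fold higher and 3 lower in ApoE3 (median -0.17), and in ApoE4 4 were higher and none lower on the deposited values (median 0.78), or 2 higher and 2 lower relative to all genes (median 0.25). The homeostatic list had medians of -0.01 in ApoE3 and 0.47 in ApoE4, which are -0.09 and -0.05 relative to all genes. The A1 and A2 lists were lower relative to all genes in both genotypes, with medians of -0.70 and -0.72 in ApoE3 and -0.57 and -1.18 in ApoE4.

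Osmr had the lowest log2 ratio over time in ApoE3, -1.32, followed by Cd44 at -1.29, Vim at -1.15 and Cp at -1.13. Steap4 was at -0.91, Gfap at -0.60, Nes at -0.49 and S1pr3 at -0.48. In ApoE4 the lowest was Cp at -1.27, a 2.42-fold lower level, followed by Cd44 at -1.003, Osmr at -0.88 and Vim at -0.87. Steap4 was at -0.70, Nes at -0.22 and S1pr3 at -0.19, and Gfap was at 0.31, which is -0.22 relative to all genes. On the deposited values, 1 of the 8 genes, Cp, had a lower ratio over time in ApoE4 than in ApoE3. Relative to all genes, 6 of 8 were lower in ApoE4 by at least 0.1 on the log2 scale, Osmr was at -1.41 in both genotypes, and Gfap was higher (-0.68 in ApoE3 and -0.22 in ApoE4). Among the 6, Cp was at -1.22 and -1.80, Vim at -1.24 and -1.40, and Cd44 at -1.38 and -1.53. The order of the genotypes over time therefore turns with the scaling for Vim, Nes, Cd44, S1pr3 and Steap4. The place of Steap4 depends on the amount added to its low FPKM: after adding 0.01 in place of 1, it was at -1.34 in ApoE3 and -1.06 in ApoE4. The receptors Cd44 and Osmr and the filament gene Vim had lower ratios over time than Gfap in both genotypes, and the ratio of Gfap to Vim was 23.5 in ApoE3 and 20.3 in ApoE4 at 7 dpi, and 34.5 and 45.9 at 21 dpi.

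**Figure D4:**
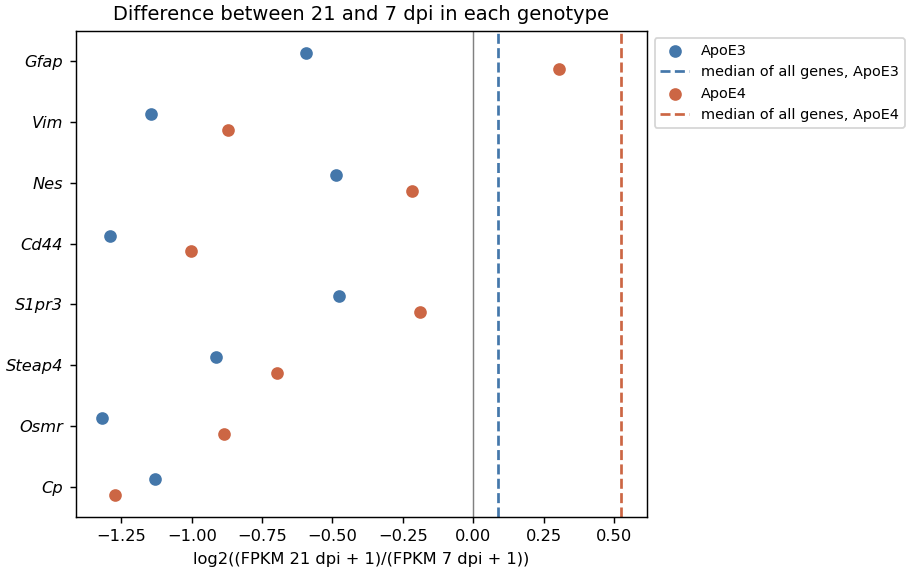
Log2 ratio of 21 over 7 dpi (horizontal axis, after adding 1 to FPKM) of each gene in ApoE3 (blue points) and ApoE4 (orange points), 1 value each, with the median of all genes in each genotype dashed. All points lie left of the median of their own genotype, and Gfap in ApoE4 (0.31) is the only point to the right of 0.

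Markers of other cells that express some of the 8 genes are given beside these differences; some lists went the same way as the genes and others the opposite way. Microglia and macrophage markers had a median log2 ratio of 0.25 between genotypes at 7 dpi, with 6 of 7 genes higher in ApoE4, close to Vim, Nes and Cd44, and of 0.35 relative to all genes at 21 dpi, with 5 of 5 above the median. Their summed level over the 5 genes listed at both times went from 5114 FPKM at 7 dpi to 512 FPKM at 21 dpi in ApoE3 and from 6686 to 961 FPKM in ApoE4. Lyz2, lysozyme of myeloid cells, had 4522 and 6076 FPKM at 7 dpi and 212 and 426 FPKM at 21 dpi in the respective genotypes, 88.4% and 90.9% of the sum at 7 dpi but 41.4% and 44.3% at 21 dpi. Without Lyz2 the sum went from 592 to 300.3 FPKM in ApoE3 and from 609 to 536 FPKM in ApoE4. On the deposited values Aif1 was higher at 21 dpi in ApoE4, at 285 and 320 FPKM. Relative to all genes its log2 ratio over time in ApoE4 was -0.36. The median of the list over time, relative to all genes, was -1.50 in ApoE3 and -1.17 in ApoE4. Fibroblast and pericyte markers were higher in ApoE4 for 7 of 7 genes at 7 dpi, with a median log2 ratio of 0.35, and at 21 dpi 7 of 7 lay under the all-gene median, at -0.67. Their summed level went from 733 to 189 FPKM in ApoE3 and from 917 to 158 FPKM in ApoE4, and Col1a1, a fibrillar collagen, went from 212 to 2.44 FPKM in ApoE3 and from 270.0 to 2.27 FPKM in ApoE4. Dcn, the proteoglycan decorin, differed from the rest, at 45.7 and 56.6 FPKM in ApoE3 and ApoE4 at 7 dpi and 61.9 and 9.37 FPKM at 21 dpi. Without Dcn the 21 dpi sums were 127 FPKM in ApoE3 and 148 FPKM in ApoE4. On the deposited values the order of the genotypes in that sum thus rests on Dcn. Relative to all genes it does not, since 7 of 7 genes lay under the median. No listed marker of these cells was at 0 in any group. Both lists had a lower median at 21 than at 7 dpi, as Vim, Cd44 and Osmr had lower levels, but between genotypes at 21 dpi the fibroblast list lay below all genes while Vim, Nes, Cd44 and Osmr lay slightly above. The part of these cells in the levels of Vim, Cd44 and Osmr was not tested.

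Ependymal markers, which bear on Nes, were 4 of 4 above 0 at 7 dpi with a median log2 ratio of 0.11, and 4 of 4 under the all-gene median at 21 dpi, at -0.77; their sum was 70.3 and 74.2 FPKM at 7 dpi and 109 and 106 FPKM at 21 dpi in ApoE3 and ApoE4, with Foxj1 the most abundant. On the deposited values, the ependymal sum was thus higher at 21 than at 7 dpi in both genotypes, where Nes was lower. Relative to all genes, the median log2 ratio of the ependymal list over time was 0.76 in ApoE3 but 0.002 in ApoE4. The relative ratios of Nes over time were -0.58 in ApoE3 and -0.74 in ApoE4. Endothelial markers had medians of 0.07 over 5 genes at 7 dpi and -0.10 relative to all genes over 4 genes at 21 dpi. Cldn5 was the most abundant. Deposited sums over those 4 were 102 FPKM at 7 dpi and 103 at 21 dpi in ApoE3, and 109 and 127 FPKM in ApoE4. Relative to all genes, the median log2 ratio of these markers over time was -0.35 in ApoE3 and -0.49 in ApoE4. Oligodendrocyte markers had medians of 0.07 over 4 genes at 7 dpi and 0.11 relative to all genes over 6 genes at 21 dpi, and their most abundant gene, Mbp, was above Gfap in every group. Neuron markers had medians of -0.35 over 7 genes at 7 dpi, all 7 lower in ApoE4, and 0.01 relative to all genes over 5 genes at 21 dpi. At 7 dpi, when Gfap was nearly equal, 3 of the 7 neuron markers were at least 1.3-fold lower in ApoE4, beside 3.78% of all genes.

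Genes of other tissues also differed between the 21 dpi groups. Tnnt3, a troponin of skeletal muscle, was at 22.5 FPKM in ApoE3 and 515 FPKM in ApoE4 at 21 dpi. Relative to all genes 4 of 4 muscle genes were at least 1.3-fold higher in ApoE4, beside 8.07% of all genes. Myh4 was listed at 0 in ApoE3. Apoa2, a plasma apolipoprotein made by the liver, was at 5.38 and 59.2 FPKM, with 4 of 4 liver genes higher by the same rule. At 7 dpi, 3 muscle genes were listed, with a median log2 ratio of -0.28. Gfap, Vim, Cd44 and the other members come from the same segments, and the part of a difference in dissection in their 21 dpi ratios was not tested.

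**Figure D5:**
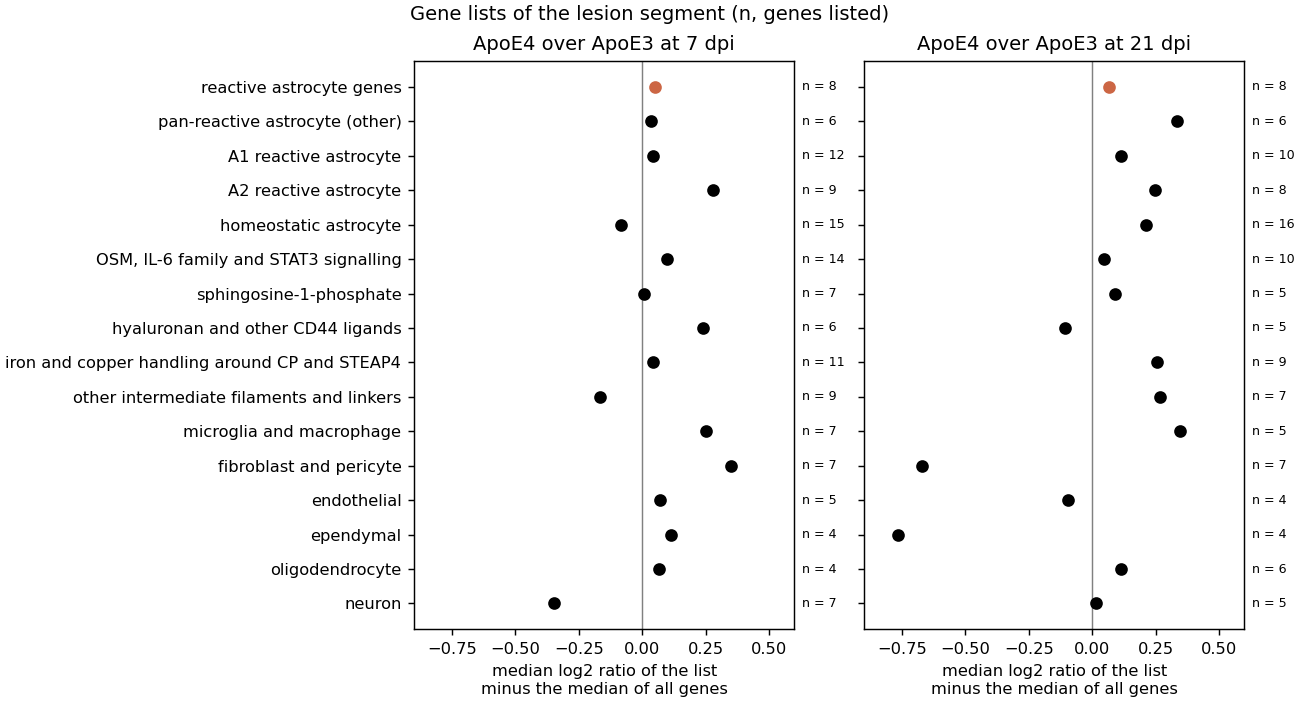
Median log2 ratio of ApoE4 over ApoE3 minus the median of all genes (horizontal axes) for the 8 reactive astrocyte genes (orange) and 15 other gene lists (black) at 7 dpi on the left and 21 dpi on the right, with the number of genes listed at the right edge; the Schwann cell, skeletal muscle and liver lists are not drawn. The 8 genes lie near 0 at both times (0.05 and 0.06), and fibroblast and ependymal markers lie at -0.67 and -0.77 at 21 dpi.

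The receptors and enzymes were set beside the other genes of their pathways. Around Osmr stood a list of oncostatin M, interleukin-6 family and STAT3 genes. At 7 dpi, 4 of 14 were at least 1.3-fold higher in ApoE4 and none lower (median 0.10), beside 4.76% and 3.78% of all genes. Relative to all genes at 21 dpi, 3 of 10 were higher and 1 lower (median 0.05), beside 8.07% and 7.47%. Clcf1, a ligand of this family counted on the A2 list, was at 0.90 at 7 dpi and at -0.61 relative to all genes at 21 dpi. Osm, the ligand of Osmr, was at 2.75 FPKM in ApoE3 and 3.92 FPKM in ApoE4 at 7 dpi, and 1.25 and 3.36 FPKM at 21 dpi, a relative log2 ratio of 0.53. Stat3 was at 205 and 198 FPKM at 7 dpi and 138 and 178 FPKM at 21 dpi, a relative log2 ratio of -0.05. Osmr and Stat3 therefore both stayed near the median of all genes between genotypes, while the low ligand Osm was higher in ApoE4.

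Around Cd44 stood a list of hyaluronan genes and other Cd44 ligands. At 7 dpi, 2 of 6 were at least 1.3-fold higher in ApoE4 (median 0.24), beside 4.76% of all genes. At 21 dpi, 1 of 5 was higher relative to all genes (median -0.11), beside 8.07%. Spp1, the Cd44 ligand osteopontin, was listed only at 21 dpi, with 918 FPKM in ApoE3 and 1809 FPKM in ApoE4, a relative log2 ratio of 0.55, whereas Cd44 itself was at 0.09. Vcan, a proteoglycan that binds hyaluronan, was at 155 and 183 FPKM at 7 dpi and 40.5 and 60.9 FPKM at 21 dpi, so that it was lower at 21 dpi in both genotypes as Cd44 was. Around S1pr3, the sphingosine-1-phosphate list had no gene past 1.3-fold at 7 dpi (7 genes, median 0.01) or relative to all genes at 21 dpi (5 genes, median 0.09). S1pr1, another receptor for the same lipid, had a relative log2 ratio of 0.28 at 21 dpi beside -0.09 for S1pr3. Sphk1, a sphingosine kinase counted on the A2 list and not on this one, did pass the fold at 21 dpi. It was at 55.5 FPKM in ApoE3 and 119 FPKM in ApoE4, a relative log2 ratio of 0.66.

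Around Cp and Steap4 stood the iron and copper list. At 7 dpi, 2 of 11 genes were at least 1.3-fold higher in ApoE4 (median 0.04), beside 4.76% of all genes. At 21 dpi, 7 of 9 were higher on the deposited values, beside 58.9%. Relative to all genes, 1 of 9 was higher (median 0.26), beside 8.07%. That 1 gene was Hamp, at 0.09 FPKM in ApoE3 and 6.20 FPKM in ApoE4, which went the way of the liver genes. Fth1, the heavy chain of the iron store ferritin, was at 8250.0 and 10043 FPKM at 7 dpi and 14590 and 22271 FPKM at 21 dpi in ApoE3 and ApoE4. Over time Fth1 went against most of the list. At 21 dpi 6 of 8 genes in ApoE3 and 5 of 8 in ApoE4 were at least 1.3-fold lower (medians -1.14 and -0.54). Cp and Steap4 were as well. Of all genes, 23.6% in ApoE3 and 10.9% in ApoE4 were lower by that fold on the deposited values. Ftl1, the ferritin light chain, was at 2911 and 4136 FPKM at 7 dpi and 791 and 1268 FPKM at 21 dpi. Slc40a1, the iron exporter that works with Cp, was at 10.5 FPKM in ApoE3 and 18.5 FPKM in ApoE4 at 21 dpi, a relative log2 ratio of 0.34 beside -0.55 for Cp. None of the 9 genes was 1.3-fold lower relative to all genes at 21 dpi, beside 7.47% of all genes. Cp and Steap4 were, Steap4 at values near 1.3 FPKM. Around the filament genes, the list of other intermediate filaments and linkers had no gene past 1.3-fold at 7 dpi (9 genes, median -0.17). At 21 dpi the list had 3 of 7 higher relative to all genes (median 0.27), beside 8.07% of all genes. Its most abundant gene, the neurofilament gene Nefm, was at 609 FPKM in ApoE3 and 1149 FPKM in ApoE4 at 21 dpi, a relative log2 ratio of 0.49, close to the 0.48 of Gfap.

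The course of Gfap over the 4 groups was compared with that of all other genes. Among 8511 genes with a mean of at least 10 FPKM, 30 stayed within 0.1 of Gfap in every group on the log2 scale after each gene was centred on its own mean. The closest 5 were Cenpm, a centromere protein, with a largest difference of 0.008, Slc37a3 (0.017), Cep295 (0.052), Lpcat3 (0.054) and Cbx5 (0.059). Cenpm had 27.8 and 27.7 FPKM in ApoE3 and ApoE4 at 7 dpi and 18.2 and 34.9 FPKM at 21 dpi. None of the 5 is on the astrocyte lists used here, and with 4 values many genes can share a course.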

How the data were processed

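Lesion segments were sequenced as single-end reads of 100 nucleotides. The authors reduced the libraries to the size of the smallest, aligned them with STAR 2.5.4b and Bowtie2, and obtained FPKM with Cuffdiff 1.3.0, with SAMtools 0.1.7, per the labels and the study's methods; the genome build is not given in the sources used here. The authors had added 1 to each deposited FPKM, and it was taken off again. Depth per gene is unknown. The study's methods report a lower share of aligned reads for 1 replicate, whose group their text does not name. The table also holds the authors' own fold changes, p-values and q-values, and a further file their selected genes. The fold changes and that list were looked at only to learn the scale and which value column is which genotype; no value of theirs enters a result.

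Ratios were log2((FPKM + 1)/(FPKM + 1)), which understates differences of low genes, over all 14127 genes listed at 7 dpi and 11474 at 21 dpi, or the 10876 listed at both. Relative ratios subtract the all-gene median, taken over genes whose mean reached 1 FPKM. No difference was tested, and no comparison has replicates. Computation used Python 3.11.15, numpy 2.4.6, pandas 2.3.3 and matplotlib 3.10.9, and was checked on simulated data.

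The 8 genes and the 18 lists (162 genes, 141 listed at either time) were chosen with earlier results of these data known. The Schwann cell list is not reported here. Genes of other lists, apart from Clcf1, were named from the 4 with the highest mean FPKM and the 2 with the largest log2 ratio between genotypes. The genes most like Gfap are the 5 with the smallest largest difference in centred log2 profile. Alternatives were pseudocounts of 0.1 and 0.01, a minimum mean FPKM of 1, centring on all genes, folds of 1.5 and 2, the exchanged reading of the genotypes and, chosen after the values were seen, centring on the homeostatic astrocyte list.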

Additional observations from a re-analysis of the deposited data

Results flagged for a closer look

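Cp had ratios between genotypes of opposite sign at 7 and 21 dpi under both scalings. Gfap did so on the deposited values alone, and S1pr3 relative to all genes alone. For Cp the log2 ratio of ApoE4 over ApoE3 was 0.01 at 7 dpi and -0.13 at 21 dpi on the deposited values. The ratio at 7 dpi is close to 0, each rests on 1 value per group, and the difference was not tested.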

How the results depend on the processing

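No paired analysis was possible because each group has 1 value. A minimum mean FPKM of 1 moved no result. Pseudocounts of 0.1 and 0.01 moved the median log2 ratio over time of the 8 genes from -1.02 to -1.15 and -1.15 in ApoE3, and from -0.78 to -0.89 and -0.89 in ApoE4, with no count changed beyond 1.5 times. Steap4, the gene of lowest FPKM, moved over time from -0.91 to -1.29 and -1.34 in ApoE3, and from -0.70 to -1.01 and -1.06 in ApoE4. With a minimum fold of 1.5, the 5 genes higher in ApoE4 at 21 dpi became 1, and with a fold of 2 they became 0, while the genes lower at 21 dpi became 4 in ApoE3 and 2 in ApoE4. Centring on all genes moved the median at 21 dpi from 0.49 to 0.064, the count higher to 1 and the count lower to 2, and the median over time in ApoE4 to -1.31.

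With the genotypes exchanged, the median at 21 dpi became -0.49, with 0 genes higher and 5 lower in ApoE4, and Gfap, Vim, Nes, Cd44 and Osmr had log2 ratios of -0.90, -0.49, -0.55, -0.51 and -0.49. Over time the exchanged medians were -0.78 in ApoE3, with 5 genes lower, and -1.02 in ApoE4, with 8 lower, and Gfap in ApoE3 was at 0.31. These turns follow from the exchange itself.

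Centring on the homeostatic astrocyte list, chosen after the values were seen, gave a median at 21 dpi of -0.15, with 0 genes higher and 2 lower; Vim, Nes, Cd44 and Osmr were at -0.15, -0.089, -0.12 and -0.15, and the median over time in ApoE4 was -1.26. The cause was not tested. With 1 value per group, the spread between mice limits every comparison and cannot be estimated.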
